A study of Mus musculus with 4 samples.

Results

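The E2 ubiquitin-conjugating enzymes were followed through oxygen–glucose deprivation (OGD) in mouse astrocyte-enriched cultures (AECs). Members were all genes whose array name begins with Ube2, with every non-control probe of each gene. This gave 38 of the 29676 gene names on the array, read by 74 of its 39429 probes. AECs were mixed glial cultures from the cortex of newborn ICR mice, and microglia had been depleted in both groups by PLX3397, which blocks the CSF1 receptor that microglia need. The untreated group (n = 2) stayed in normal culture, and the OGD group (n = 2) was kept for 15 h without glucose under hypoxia. Total RNA was labeled with Cy3 and each sample was read on its own single-color array, all on 1 slide. With 2 samples a group, the p-values measure the spread between these samples, and the smallest p of an exact permutation test would be 0.333.

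Ubiquitin reaches its substrates through a relay. An E1 enzyme activates it, an E2 enzyme carries it on a cysteine, and an E3 ligase brings the loaded E2 to the substrate. The choice of E2 helps to set which kind of chain is built, and some E2 enzymes carry relatives such as NEDD8 or ISG15 in place of ubiquitin. The relay marks damaged or unwanted proteins for the proteasome and serves DNA repair, cell division and signaling.

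Values are processed signals, the background-corrected brightness of a spot, or log2 signals after each array's 75th percentile had been subtracted. This percentile lay at 2135 and 2164 without OGD and at 887 and 776 with it, so that "higher" and "lower" mean relative to this percentile. It fell by 1.37 on the log2 scale, whereas RNA spiked in at a fixed amount differed by −0.08, the mean of 9 probes that ranged from −0.75 to 0.28. Scaling on the spike-ins therefore shifts every log2 fold change by −1.29 and turns the direction of most E2 genes, as given below. The probes differed between replicates by a median of 0.09 (untreated) and 0.16 (OGD) on the log2 scale. The labeled cell type was checked with fixed marker lists. All 10 astrocyte markers were well above background in both groups, as were 9 of 10 microglia markers before and 7 after OGD, all 10 and 9 of 10 oligodendrocyte lineage markers, 7 and 6 of 8 neuron markers and 7 and 6 of 8 fibroblast and vascular markers. Of all probes, 63.6% to 73.1% were well above background on an array. In such bulk samples, fewer cells of a type and less RNA per cell cannot be told apart.

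The probes that carry the findings below are shown by their last 30 bases, 5′ to 3′ in the sense of the transcript, with matches to the polyadenylation hexamers AATAAA and ATTAAA in capitals. They are the probes of both genes with the largest increases, and the probe pairs of *Ube2d3* and *Ube2q2*, which disagreed. Such a hexamer lay in this stretch of 10 of the 74 Ube2 probes (13.5%) and of 13.7% of all probes. Positions are on mm9, as the files give them.
Ube2ql1, chr13:69842725-69842784, minus strand: aagagcaaactgtttgggattacatttcca
Ube2j1, chr4:33136943-33137002, plus strand: tcATTAAAcattctgcattgggtataacct
Ube2d3, upstream, chr3:135123030-135125958, plus strand: gttcactgctatgtgatccaaacccagacg
Ube2d3, downstream, chr3:135129159-135129218, plus strand: ttacaggttgacacattgcttgacctgatt
Ube2q2, upstream, chr9:55054080-55054139, plus strand: gatttttacagtaacctttctatattgagc
Ube2q2, downstream, chr9:55055069-55055128, plus strand: aagacagaattcttcaacacattattaagt
Each probe has 60 bases. The upstream probe of *Ube2d3* covers a much longer stretch of the genome than that, so its bases lie in separate blocks. No transcript model of this build was used, and whether a probe lies in coding or noncoding sequence was not analysed here.

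Most E2 genes were expressed, and after OGD most stood higher relative to the 75th percentile of the array and lower relative to the spike-ins. Of the 38 genes, 34 had a probe that stood well above background on both arrays of a group, beside 21061 of all 29676 genes. Of the 74 probes, 68 were kept by this rule, beside 28254 of all 39429, and 66 stood well above background on all 4 arrays. *Ube2dnl2* entered only through the untreated group. By the brightest probe of each gene, 22 passed an adjusted p of 0.05 as higher (limma), while 37.1% of the 21061 genes tested did so. Only 3 genes, *Ube2d1*, *Ube2q1* and *Ube2z*, passed as lower, against 27.8% of all genes. The other 9 did not pass. The remaining text gives values with 75th-percentile scaling unless it says otherwise. The median log2 fold change was 0.52 over the E2 genes and 0.16 over all genes. Under spike-in scaling 2 E2 genes passed as higher and 27 as lower, beside 3.84% and 83.3% of all genes, with medians of −0.77 and −1.13. The distance between both medians, 0.36, was the same under either scaling, but was 0.06 with another background correction of the same spots (normexp).

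**Figure D1:**
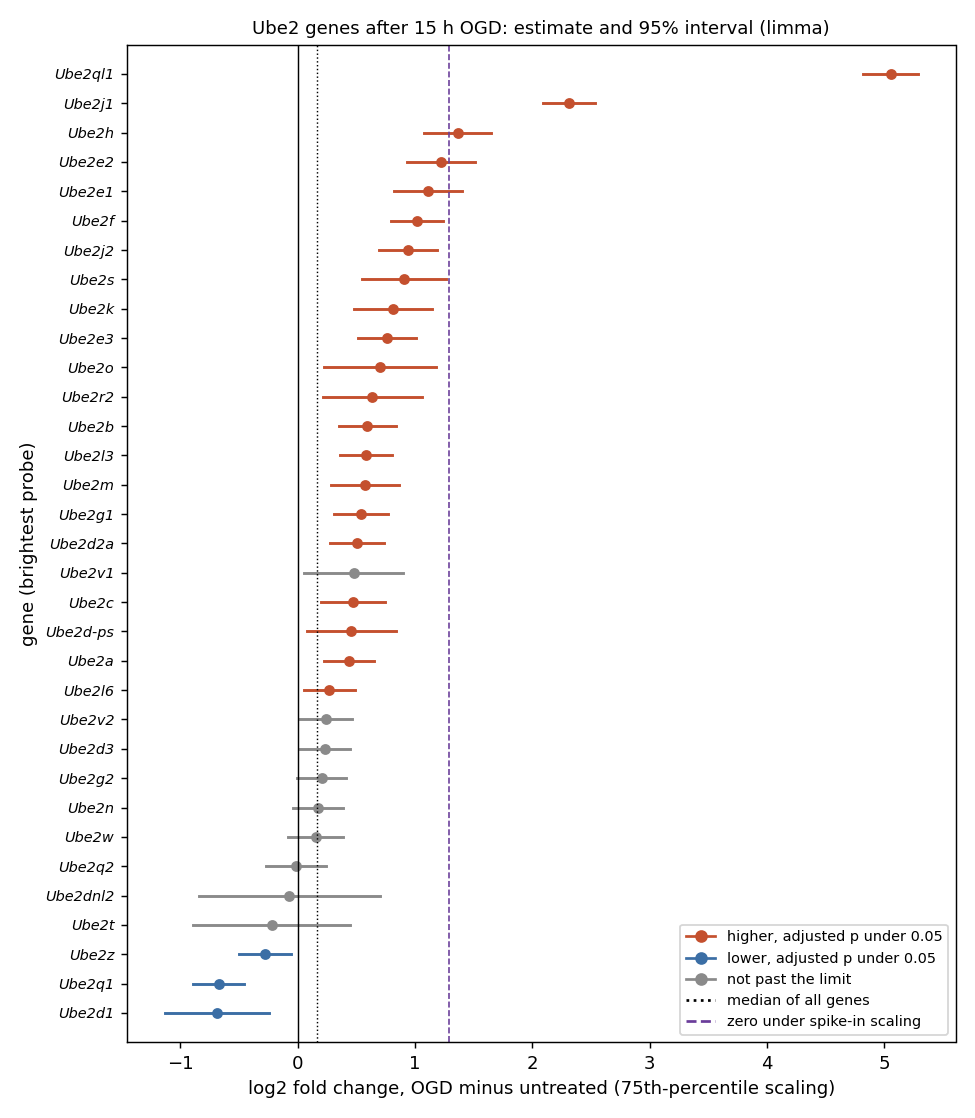
Log2 fold change of 33 of the 34 E2 genes tested, OGD minus untreated (n = 2 each), by the brightest probe. Points are limma estimates and bars their 95% intervals, the dotted line is the median of all genes (0.16), and genes to the left of the dashed line (at 1.29) are lower once arrays are scaled on the spike-ins, so that only *Ube2ql1*, *Ube2j1* and *Ube2h* stay above 0.

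Size set few genes apart. Past 2-fold, 6 E2 genes were higher, against 12.7% of all genes, and 0 were lower, against 15.0%. With this scaling no E2 gene was lower by over 2-fold at any p (0 of 34 by limma), whereas spike-in scaling gave 2 higher and 12 lower past 2-fold, beside 2.01% and 55.7% of all genes. Quantile normalization gave 3 higher and 0 lower past 2-fold, beside 9.89% and 15.9% of all genes. Past 10-fold, the limit in the study's methods, there was 1 gene, *Ube2ql1*, against 1.27% of all genes in either direction. In 31 of the 34 genes the scaled values of the groups did not overlap, and neither did those of 17799 of all genes tested. Without any scaling and by the brightest probe, both OGD arrays lay above both untreated arrays only for *Ube2j1* and *Ube2ql1*. They overlapped for *Ube2h* and lay below for the other 31. These 2 above (5.88%) and 31 below (91.2%) stand beside 4.78% and 90.9% of all genes.

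*Ube2ql1* encodes an E2 of the Q family that has been linked to the clearance of damaged lysosomes. Its signal was 54.4 and 51.6 in the untreated cultures and 734 and 629 after OGD. It went from the dim end of the array, though well above background on all 4 arrays, to a level near the 75th percentile. The log2 fold change was 5.05 ± 0.08 (SE, n = 2 per group), or 33.2-fold (adjusted p = 0.000729, limma). It was the largest change among the E2 genes, and it was read by a single probe. Over all settings tried it ranged from 3.77 (spike-in scaling) to 5.10.

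*Ube2j1* encodes an E2 anchored in the membrane of the endoplasmic reticulum (ER), where it serves the disposal of misfolded proteins. Its signal was 9272 and 9850 untreated and 19370 and 17360 after OGD. Both OGD arrays stood above both untreated arrays even before scaling. The log2 fold change was 2.31 ± 0.08, or 4.97-fold (adjusted p = 0.000729, limma), and 1.03 under spike-in scaling, where it still passed. Its other probes were higher too, by 1.89 and 1.29 with 75th-percentile scaling. The deposited signals of the last of them overlapped between the groups, at 95.5 and 84.6 untreated and 81.5 and 88.5 after OGD.

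*Ube2h*, the E2 of the CTLH ligase complex, had signals of 1156 and 1337 untreated and 1338 and 1141 after OGD. These overlapped as deposited and came apart after scaling, with a log2 fold change of 1.36 ± 0.10 (adjusted p = 0.00166, limma). Under spike-in scaling it was 0.08 and did not pass. Its other probe gave 1.94 with 75th-percentile scaling. There the deposited signals did not overlap, at 598 and 665 untreated and 933 and 942 after OGD.

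*Ube2e2* and *Ube2e1* encode E2 enzymes that place a first ubiquitin on many substrates. Signals of *Ube2e2* were 18360 and 20150 untreated and 17500 and 17170 after OGD. Those of *Ube2e1* were 24760 and 23960 untreated and 20320 and 20280 after OGD. Both were lower as deposited and higher after scaling, at 1.22 ± 0.10 (adjusted p = 0.00207, limma) for *Ube2e2* and at 1.11 ± 0.10 (adjusted p = 0.0025, limma) for *Ube2e1*. Under spike-in scaling they were at −0.07 and −0.18, and neither passed.

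*Ube2f* encodes one of the 2 E2 enzymes of NEDD8, a protein that switches on the cullin ligases. Its signal was 19460 and 20730 untreated and 16550 and 14870 after OGD, a log2 fold change of 1.02 ± 0.08 after scaling (adjusted p = 0.0018, limma). Its other probe, 27536 bases away, gave the same 1.02. Under spike-in scaling it was at −0.27 and did not pass. *Ube2f* was just past 2-fold, and *Ube2j2*, at 0.94, was just short of it.

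**Figure D2:**
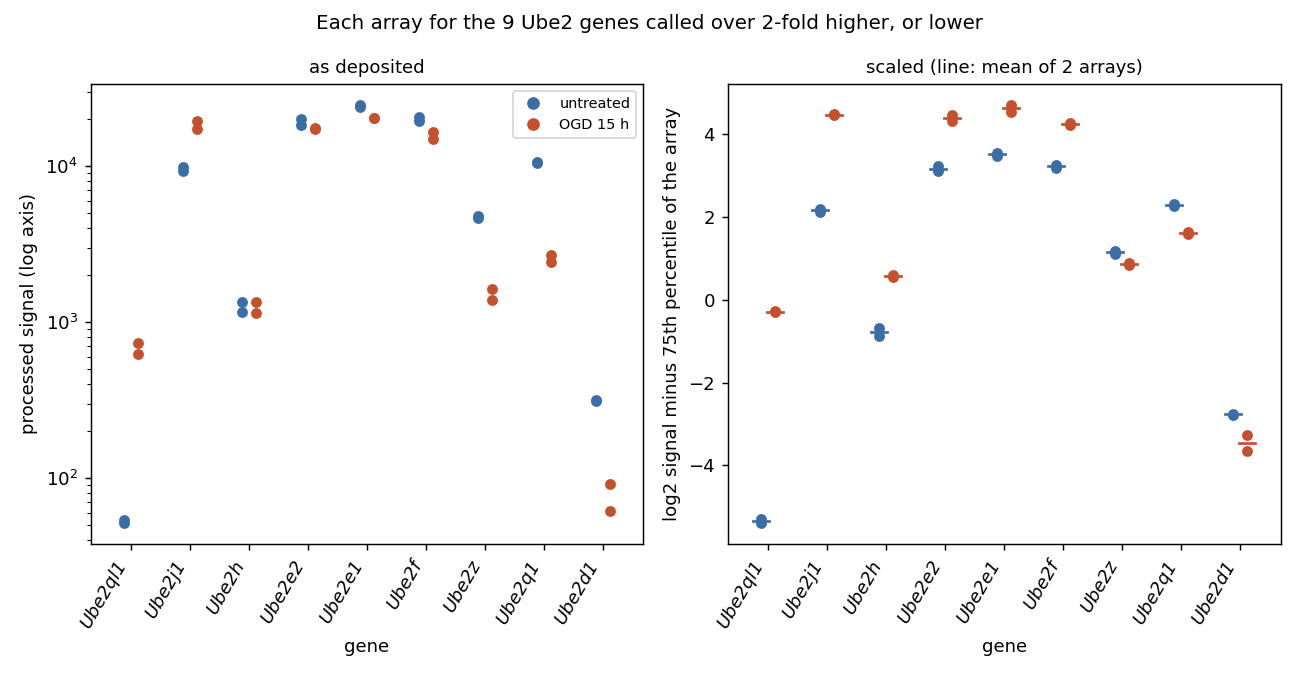
Each array's value (n = 2 per group) at the brightest probe of the 6 E2 genes higher by over 2-fold and of the 3 that passed as lower, with 75th-percentile scaling. The left panel shows the processed signal as deposited, on a log axis, where only *Ube2ql1* and *Ube2j1* have both OGD arrays above the untreated ones, and the right panel shows the same arrays as log2 signal minus the array's 75th percentile, where the first 6 lie above and the last 3 below.

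The 3 lower genes changed less. *Ube2d1*, a broad E2 that works with many ligases, had signals of 317 and 313 untreated and 92.0 and 61.8 after OGD. Its log2 fold change was −0.69 ± 0.16 (adjusted p = 0.023, limma). It lost its call under 4 of 17 alternatives, which were the methods' t-test (adjusted p of 0.111), normexp (−0.23, adjusted p of 0.0659) and leaving out untreated array 1 or 2 (adjusted p of 0.11 and 0.103, limma). *Ube2q1*, of the same family as *Ube2ql1*, had signals of 10610 and 10390 untreated and 2675 and 2412 after OGD. Its log2 fold change was −0.67 ± 0.08 (adjusted p = 0.00394, limma), and it passed as lower under all 17 alternatives. *Ube2z*, an E2 that is loaded by the E1 enzyme Uba6, was at −0.28 ± 0.08 (adjusted p = 0.0419, limma) and lost its call under 7 alternatives. Under spike-in scaling these genes were at −1.98, −1.96 and −1.57.

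By role, of the 6 E2 enzymes of the degradation-type chains and the ER, 5 passed as higher and 0 as lower with 75th-percentile scaling, with a median of 0.72, beside 22 of all 34 E2 genes and 37.1% of all genes. With quantile normalization 2 of the 6 passed, *Ube2j1* and *Ube2g1*, while *Ube2j2* (0.24), *Ube2k* (0.38) and *Ube2r2* (0.23) lost their calls. Except *Ube2j1*, they were below 0 with spike-in scaling. Beside *Ube2j1* these were *Ube2j2* (0.94), which sits in the same membrane, *Ube2k* (0.81), *Ube2r2* (0.64) and *Ube2g1* (0.54). *Ube2g2*, which works with the ER ligase gp78, was at 0.20 by its brightest probe and did not pass (adjusted p = 0.0764, limma). Its other probe was at 0.86 and passed as higher (adjusted p = 0.0119, limma), as did the mean over its probes, at 0.53. The gene also passed as higher in the methods' t-test and by limma with a trend. *Ube2j1* stood above *Ube2j2* by 1.37 on the log2 scale in its change, and by 1.30 to 1.44 over the 4 pairings of an untreated with an OGD array. Such a difference is the same under scalings that subtract 1 value per array, spike-in scaling included, but not under quantile normalization, where it was 1.65.

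Among the broad E2 enzymes of the Ube2d and Ube2e groups, 4 of 6 passed as higher and 1 as lower, with a median of 0.63, beside 37.1% and 27.8% of all genes. By the brightest probe, all 6 were below 0 with spike-in scaling, and with quantile normalization 3 passed as higher. *Ube2e3* was at 0.76 and *Ube2d2a* at 0.51, while *Ube2d3* was at 0.23 by its brightest probe and did not pass (adjusted p = 0.0581, limma). The other probe of *Ube2d3* was at 2.27 and passed as higher (adjusted p = 0.000942, limma), as did the mean over its probes, at 1.25. By the brightest probes, the change of *Ube2d1* was lower than that of *Ube2d3* by 0.93, with pairings between −1.17 and −0.68. With quantile normalization the change of *Ube2d1* was at −0.46 relative to that of *Ube2d3*. *Ube2d2b* was not well above background on any array, with signals of 1.58 to 5.90 over both of its probes. Its nearest probe shares 46 of 57 aligned bases with one of *Ube2d2a*. The pseudogene *Ube2d-ps* was at 0.46 (adjusted p = 0.045, limma), lost its call under 8 of 17 alternatives, was at 1.01 with normexp and was reversed to −0.83 with spike-in scaling.

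The E2 enzymes of ubiquitin-like proteins passed as higher in 4 of 4 cases, with a median of 0.70, beside 22 of all 34 E2 genes and 37.1% of all genes. All 4 were below 0 with spike-in scaling, and with quantile normalization 3 passed as higher. *Ube2m*, the other E2 of NEDD8, was at 0.58, and its change relative to that of *Ube2f* was −0.44, or −0.03 with quantile normalization. *Ube2l6*, the E2 of the interferon-induced modifier ISG15, was at 0.27 (adjusted p = 0.0427, limma). It was the weakest of the 4 and lost its call under 9 of 17 alternatives, beside a reversal to −1.02 under spike-in scaling. Interferon-stimulated genes, as a list, passed as higher in 2 and as lower in 5 of 14 cases, beside 37.1% and 27.8% of all genes.

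*Ube2n* builds non-degradative chains together with its inactive partners *Ube2v1* and *Ube2v2*. By the brightest probe, none of the 3 passed by limma (0 of 3), at log2 fold changes of 0.17, 0.48 and 0.24. At an unadjusted p of 0.05, 2 of them did, and in the methods' t-test *Ube2n* passed with an adjusted p of 0.0499, while limma with a trend called *Ube2v1* and *Ube2v2*. Other probes did pass, as higher at 0.79 for *Ube2n* (adjusted p = 0.00324, limma) and at 1.14 and 0.97 for *Ube2v1* (adjusted p = 0.00191 and 0.00332, limma), and as lower at −0.95 for *Ube2v2* (adjusted p = 0.021, limma). With the mean over a gene's probes, *Ube2n* (0.48) and *Ube2v1* (0.86) passed as higher, and *Ube2v2* was at −0.24 and did not pass. With quantile normalization and with spike-in scaling the brightest probes of all 3 were below 0.

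*Ube2a* and *Ube2b*, the RAD6 enzymes of DNA damage tolerance and histone ubiquitination, were at 0.44 and 0.59, and both passed, as they did in the other direction with spike-in scaling (−0.85 and −0.69). With quantile normalization they were at 0.23 and 0.10, and neither passed. *Ube2c* and *Ube2s*, which start and extend chains for the anaphase-promoting complex, passed as higher too. *Ube2c* had signals of 3120 and 3123 untreated and 1894 and 1474 after OGD, a scaled log2 fold change of 0.47 ± 0.10. *Ube2s* had signals of 18280 and 17120 untreated and 14980 and 10920 after OGD, a scaled log2 fold change of 0.91 ± 0.13. Under spike-in scaling they were at −0.82 and −0.38. Of the cell cycle list, 13 of 19 genes tested passed as lower and 2 as higher, with a median of −0.52, beside 27.8% and 37.1% of all genes. *Ube2t*, the E2 of the Fanconi anemia pathway, was at −0.22 (adjusted p = 0.45, limma).

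Of the remaining E2 enzymes, 4 of 8 passed as higher and 2 as lower, beside 37.1% and 27.8% of all genes, and with quantile normalization 2 and 2. All but *Ube2ql1* and *Ube2h* were below 0 with spike-in scaling. *Ube2l3*, which serves HECT-type and parkin-type ligases, was at 0.58. *Ube2o*, a large enzyme with both E2 and E3 activity, was at 0.70. *Ube2w*, which modifies the amino terminus of proteins, was at 0.15 and *Ube2q2* at −0.02 by the brightest probe, and neither passed. The other probes of *Ube2w* were at −0.47, which passed as lower (adjusted p = 0.0126, limma), and at −0.74, which did not pass. *Ube2dnl2*, dim in both groups, was at −0.07 (adjusted p = 0.834, limma) and was not well above background on either OGD array. *Ube2cbp*, *Ube2dnl1* and *Ube2u* were not tested, since they were not well above background on both arrays of either group. *Ube2cbp* is named after an E2 but is none, and it is counted here by its name only. *Ube2u* was so on 1 untreated array only.

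The partners of the E2 enzymes were counted from fixed lists, again with 75th-percentile scaling, from which spike-in scaling differs by the same −1.29 for every gene. Of all genes, 37.1% passed as higher and 27.8% as lower with this scaling, 28.4% and 31.1% with quantile normalization and 3.84% and 83.3% with spike-in scaling. Of 18 precursor genes of ubiquitin and its relatives, 14 passed as higher and 1 as lower, with a median of 0.80. The highest of them was at 1.22, so all 18 were below 0 with spike-in scaling. With quantile normalization 3 passed as higher and 1 as lower, with a median of 0.03. *Ubb*, a polyubiquitin gene, was at 1.17. Of the 10 E1 enzymes, 4 passed as higher and 4 as lower, with a median of 0.12. With quantile normalization 0 passed as higher (limma, also at an unadjusted p of 0.05) and 4 as lower, with a median of −0.18, and with spike-in scaling all 10 passed as lower. *Uba1*, the main E1 of ubiquitin, was at 0.43, *Nae1*, an E1 subunit of NEDD8, at −0.81 and *Uba7*, the E1 of ISG15, at −1.09. E2 genes with other names passed as higher in 2 and as lower in 2 of 8 cases. With quantile normalization 0 passed as higher (limma, 1 at an unadjusted p of 0.05) and 4 as lower, and with spike-in scaling all 8 passed as lower. E3 ligases that work with these E2 enzymes passed as higher in 15 and as lower in 10 of 38 cases, with a median of 0.16, and in 7 and 13 cases with quantile normalization. Genes of ER-associated degradation, the process *Ube2j1* serves, passed as higher in 7 and as lower in 3 of 14 cases, and in 3 and 3 with quantile normalization. *Herpud1* was at 1.21 and *Derl1* at 1.18, whereas *Syvn1*, the ligase that works with *Ube2j1*, was at −0.46.

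Cell type markers moved with OGD as well, and their counts changed with the scaling. Astrocyte markers passed as higher in 5 and as lower in 2 of 10 cases, microglia markers in 3 and 2 of 9, oligodendrocyte lineage markers in 4 and 4 of 10, neuron markers in 3 and 2 of 7, and fibroblast and vascular markers in 0 and 1 of 7, beside 37.1% and 27.8% of all genes. With quantile normalization astrocyte markers passed as higher in 3 and as lower in 4 cases, microglia markers in 3 and 2, oligodendrocyte lineage markers in 3 and 4, neuron markers in 2 and 3, and fibroblast and vascular markers in 0 and 2. With spike-in scaling 8 astrocyte, 7 microglia, 9 oligodendrocyte lineage, 5 neuron and 7 fibroblast and vascular markers passed as lower, and 1 neuron marker passed as higher. Summed deposited signals went from 355300 and 314700 to 192800 and 171700 for astrocyte markers. They went from 3939 and 3336 to 1744 and 1340 for microglia markers and from 62710 and 64040 to 23570 and 19970 for oligodendrocyte lineage markers. For neuron markers they went from 60980 and 57530 to 25320 and 24450, and for fibroblast and vascular markers from 42100 and 33760 to 9252 and 9635. *C1qa*, *Slc17a7* and *Cldn5* were not tested for lack of signal. The part of these shifts in the E2 results was not tested.

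Probes of the same gene did not always agree. In 21 E2 genes with several probes well above background on all arrays, the changes of the 2 brightest probes were compared, a difference that scalings by 1 value per array leave as it is. In 3 of them, *Ube2d3* and *Ube2q2* included, the changes differed past an adjusted p of 0.05 and by over 1 on the log2 scale, against 25.0% of 4856 genes. By adjusted p alone there were 8 (38.1%), against 47.7%. With quantile normalization there were again 3, against 25.6%.

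*Ube2d3* had signals of 6540 and 6973 untreated and 12440 and 12730 after OGD at its upstream probe. At its downstream probe they were 15180 and 15490 untreated and 7321 and 6625 after OGD. As deposited, both OGD arrays lay above the untreated ones at the upstream probe and below them at the downstream probe. After scaling the upstream probe was at 2.27 and the downstream one at 0.23, a difference of 2.04 ± 0.12 (adjusted p = 0.000242, limma).

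*Ube2q2* had signals of 507 and 504 untreated and 508 and 440 after OGD at its upstream probe. At its downstream probe they were 1209 and 1114 untreated and 466 and 422 after OGD. Scaled, these were changes of 1.28 and −0.02, a difference of 1.29 ± 0.11 (adjusted p = 0.000639, limma). With quantile normalization, the downstream change minus the upstream one was −2.07 for *Ube2d3* and −1.31 for *Ube2q2*. The upstream probe would have placed *Ube2q2* among the genes higher by over 2-fold, and the brightest probe did not.

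In both genes the upstream probe was the higher one. This order was then examined with the outermost probes of each gene, a comparison chosen after the values had been seen. The upstream probe was higher in 12 of 21 E2 genes (57.1%), against 43.9% of 4814 genes (limma, adjusted p of 0.05). These 12 include *Ube2d3* and *Ube2q2*, whose same probe pairs had prompted the comparison. The downstream probe was higher in 0 of 21, also by unadjusted p, by the methods' t-test and by limma with a trend, against 6.17% of all genes. Leaving out untreated array 1 or 2 brought the 12 to 4, beside 27.9% and 28.2% of all genes, and the methods' t-test brought it to 7, beside 21.0%. Quantile normalization gave 14 and 0, beside 50% and 6.81%. Leaving out OGD array 1 gave 1 gene with the downstream probe higher, beside 9.24%.

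The genes were then split by the distance between the probes, with no test of distance against difference. With over 500 bases between them, the upstream probe stood higher in 12 of 18 E2 genes (66.7%) and in 51.1% of all genes. With at most 500 bases between them, it stood higher in 0 of 3, *Ube2e1*, *Ube2e3* and *Ube2l6*, and in 14.8% of all genes. *Ube2k* went from 0.81 upstream to −0.39 downstream over 4900 bases. *Ube2v2* went from −0.02 to −0.95 over 3526 bases. In 6 of the 18 genes the difference did not pass. Among them were *Ube2f*, with its probes 27536 bases apart and equal in change, and *Ube2w* and *Ube2j2*, with probes 11922 and 1634 bases apart and the upstream change minus the downstream one at −0.27 and −0.22.

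**Figure D3:**
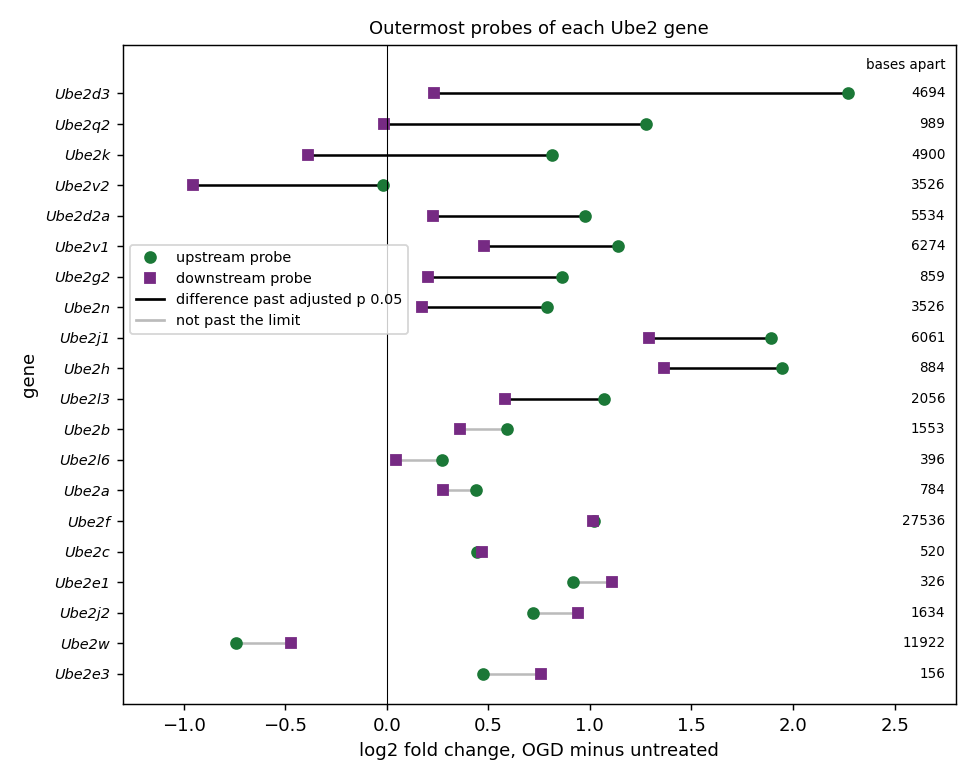
Log2 fold change, OGD minus untreated (n = 2 each), at the upstream (circle) and downstream (square) outermost probes of 20 of the 21 E2 genes, sorted by their difference, with the distance between probes in bases at the right. Black lines mark the 11 differences that passed, each with the upstream probe to the right, and gray lines the 9 that did not; scaling by 1 value per array moves both ends alike, while quantile normalization changes the differences.

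The promoters of both genes that passed as higher under every scaling run are shown because OGD includes hypoxia, whose transcription factor HIF-1 is known to bind ACGTG and GCGTG. Both strands of the 250 bases before the RefSeq start (GRCm38.p6) were searched, overlapping matches were counted each, and matches on either strand are in capitals.
Ube2j1, chr4:33031130-33031379, plus strand: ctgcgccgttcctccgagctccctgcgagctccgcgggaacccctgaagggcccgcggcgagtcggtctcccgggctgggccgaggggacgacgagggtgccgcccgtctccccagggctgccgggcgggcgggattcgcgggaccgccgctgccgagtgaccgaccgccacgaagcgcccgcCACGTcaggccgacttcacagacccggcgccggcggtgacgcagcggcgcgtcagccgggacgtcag
Ube2ql1, chr13:69739898-69740147, minus strand: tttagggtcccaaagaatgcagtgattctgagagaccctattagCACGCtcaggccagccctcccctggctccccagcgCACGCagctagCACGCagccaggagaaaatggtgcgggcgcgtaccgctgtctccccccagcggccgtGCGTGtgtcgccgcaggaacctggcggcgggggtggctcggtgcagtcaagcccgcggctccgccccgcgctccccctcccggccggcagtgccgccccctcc
The promoter of *Ube2j1* holds 1 match to ACGTG and 0 to GCGTG, and that of *Ube2ql1* holds 0 and 4. At least 1 match to either motif was found for 3 of the 6 genes higher by over 2-fold, and the third was *Ube2e2*. It was found for 18 of the 27 tested E2 genes with an entry (66.7%) and for 41.5% of 27025 genes. The 6 genes are among these 27. Base composition was not matched between these sets.

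The calls depended on the arrays and on their scaling. With untreated array 1 left out fewer genes passed, and *Ube2v1*, not called with all arrays, was among them. The medians were then 0.56 over the E2 genes and 0.20 over all genes. Fewer genes passed without untreated array 2 as well, with medians of 0.49 and 0.11. Quantile normalization gave 13 higher and 3 lower, beside 28.4% and 31.1%, with medians of 0.23 over the E2 genes and −0.02 over all genes. The distance between both medians lay between 0.06 and 0.41 over the 17 alternatives. Those that leave every fold change as it is, or shift all of them alike, keep it at 0.36 by construction.

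**Figure D4:**
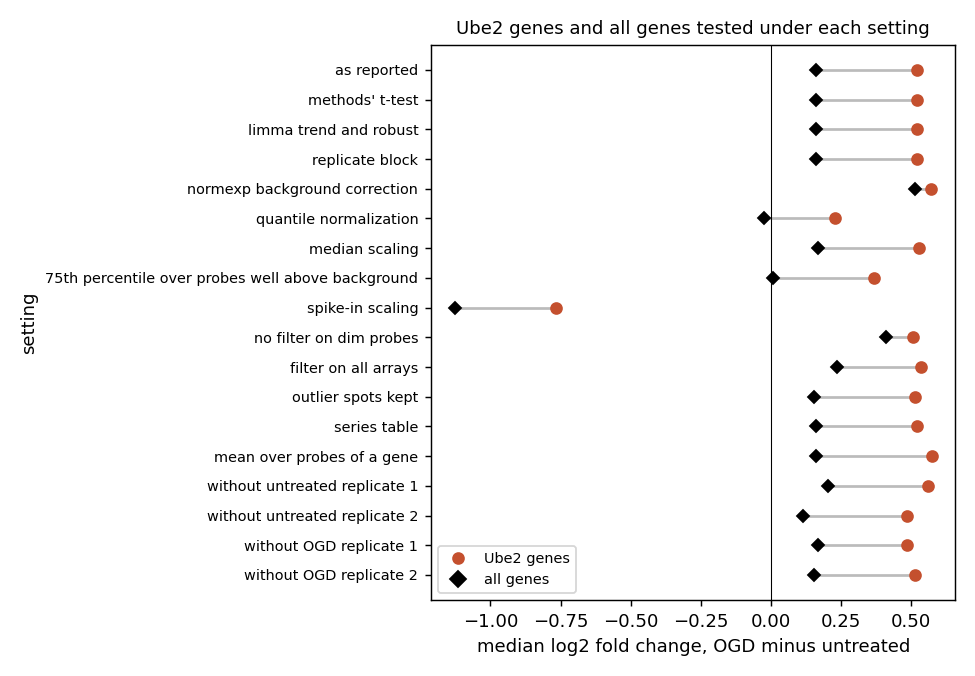
Median log2 fold change, OGD minus untreated, of the E2 genes (circles) and of all genes tested (diamonds) under each processing setting. The distance between them runs from 0.06 to 0.41 and is 0.36 in the settings that leave or shift all fold changes alike, and the E2 median lies above 0 in all rows but spike-in scaling, where it is −0.77.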

How the data were processed

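Per the labels, RNA of 4 AEC samples (untreated, n = 2, and OGD for 15 h, n = 2) was hybridized to single-color mouse arrays and read with Agilent Feature Extraction 11.5.1.1. The authors deposited the processed signal of each spot, an intensity corrected for background within the array and not normalized between arrays, and marks (0 or 1) for outlier, saturated and well-above-background spots. Probe positions, gene names and accessions are other deposited columns of the same files, and the authors' table of the series holds the same intensity (largest difference 0). The study's methods normalized to the 75th percentile and set limits of 0.05 on p after Benjamini–Hochberg adjustment and of 10 on the fold.

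From these, log2 of the processed signal was taken, outlier spots were left out (1 spot among the Ube2 probes), spots of a probe were averaged, and each array's 75th percentile over non-control probes was subtracted. The 28254 probes well above background (at least 0.5 of their spots) on each array of a group were fitted with limma 3.58.1 in R 4.3.3, with adjustment over these probes. A gene is given by its brightest probe (mean of the 4 arrays), and 15 of the 38 Ube2 genes have a single probe. Differences between probes were fitted over all genes with the probes needed. Percentages beside counts are shares of all genes tested. Ube2 genes past 2-fold or with differing probes are given in full by rule. Some genes are counted but not reported singly here. The members and all lists were chosen with earlier results of these data known. Alternatives were other tests, background corrections, scalings, filters and probe choices, and each array left out in turn. Saturated spots numbered 0 on each array, and 63.6% to 73.1% of probes were well above background on an array. The number of arrays limits the precision. The steps were tested on simulated data. Plots were drawn in matplotlib 3.10.9 (Python 3.11.15, pandas 2.3.3).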

Additional observations from a re-analysis of the deposited data

How the results depend on the processing

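With 2 arrays per group, a lone array left in a group is assumed to vary like the others. Neither the labels nor the paper say whether samples of the same number were paired. The deviations of same-numbered arrays correlated at r = −0.06 over 28163 probes, which cannot settle this, since spread between arrays can hide a pairing. With the replicate number as a block 20 Ube2 genes passed as higher and 2 as lower. Leaving out each array in turn gave 9 to 21 genes higher (9 without untreated array 2, 11 without untreated array 1), 1 to 3 lower, 4 to 13 with the upstream probe higher and 0 to 1 with the downstream probe higher. Over these fits *Ube2dnl2* ranged from −0.35 to 0.21, *Ube2q2* from −0.084 to 0.054 and *Ube2t* from −0.53 to 0.081. The methods' t-test gave 7 genes with the upstream probe higher, a setting added with the data already seen, like normexp, quantile normalization and left-out arrays for that count.

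Quantile normalization gave 13 genes higher, 3 of them past 2-fold, and a median of 0.23, and a 75th percentile taken only over well-above-background probes gave a median of 0.37. Spike-in scaling gave 2 genes higher and 27 lower, 2 and 12 of them past 2-fold, and a median of −0.77, because it shifts all genes by −1.29. Log2 fold changes of single genes that changed sign were, with spike-in scaling, −0.85 for *Ube2a*, −0.69 for *Ube2b*, −0.82 for *Ube2c*, −0.83 for *Ube2d-ps*, −0.78 for *Ube2d2a*, −1.05 for *Ube2d3*, −0.18 for *Ube2e1*, −0.065 for *Ube2e2*, −0.53 for *Ube2e3*, −0.27 for *Ube2f*, −0.75 for *Ube2g1*, −1.08 for *Ube2g2*, −0.35 for *Ube2j2*, −0.47 for *Ube2k*, −0.70 for *Ube2l3*, −1.02 for *Ube2l6*, −0.71 for *Ube2m*, −1.12 for *Ube2n*, −0.59 for *Ube2o*, −0.65 for *Ube2r2*, −0.38 for *Ube2s*, −0.81 for *Ube2v1*, −1.05 for *Ube2v2* and −1.13 for *Ube2w*. With quantile normalization they were −0.15 for *Ube2d3*, −0.17 for *Ube2l3*, −0.020 for *Ube2n*, 0.036 for *Ube2q2*, −0.25 for *Ube2v1* and −0.18 for *Ube2v2*, with normexp 1.12 for *Ube2dnl2*, 0.091 for *Ube2q2* and 0.48 for *Ube2t*, and with the mean over a gene's probes 0.63 for *Ube2q2*, −0.24 for *Ube2v2* and −0.35 for *Ube2w*. The mean over a gene's probes takes in its other probes, such as those at 1.28 for *Ube2q2*, −0.95 for *Ube2v2* and −0.74 for *Ube2w*. For normexp, run with an offset of 50, the cause was not tested. Of the values for single genes, 435 kept their direction and their side of the limit, 64 lost it, 20 gained it and 41 changed sign. *Ube2ql1*, *Ube2j1* and *Ube2q1* kept both under all 17 alternatives. The differences between the probe pairs of *Ube2d3* and *Ube2q2* passed under the 10 alternatives run for them.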
